A study of Mus musculus with 8 samples.

Results

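Kupffer cells are the resident macrophages of the liver, and 146 of the 29005 cells that passed the filters in 3 libraries of mouse organ allografts were assigned to them by their marker genes. A cell was taken as a Kupffer-rule cell when it held at least 500 unique molecular identifiers (UMIs, one for each captured mRNA molecule), at most 10% mitochondrial UMIs, at least 4 UMIs summed over Clec4f, Vsig4, Cd5l, Marco, Timd4 and Folr2, at least 1 UMI of Clec4f or Cd5l, and at most 1 UMI summed over the T cell genes Cd3d, Cd3e, Cd3g and Trac. Members were chosen by the measured UMIs of these 10 genes, so the levels of these genes are a description without a test. The liver parenchymal cell (PC) library of the liver graft gave 87 members among 10000 passing cells (0.87%, exact binomial 95% interval 0.697 to 1.07). The library labelled heart tissue-infiltrating lymphocytes (TIL) gave 59 among 9668 (0.610%, 0.465 to 0.786), and the library labelled liver TIL gave 0 among 9337, which allows a share of up to 0.0321%. Intervals here and below cover counting error only.

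The study transplanted liver, heart and kidney from BALB/c donors into C57BL/6J recipients without immunosuppression and harvested grafts and blood on day 7. Single cells were profiled by Microwell-seq, a microwell-based 3′ single-cell RNA sequencing method, in 1 library each of blood mononuclear cells (PBMC), PC and TIL, of which 8 were used here. All animals were males of 8 weeks, and the sample labels give the strain BALB/c for every library, blood of the recipients included. With 1 library per condition there was no replicate of any group, so no p-value was computed and cells were not treated as replicates. Groups of cells were compared by their summed UMIs scaled to a common library total (counts per 1e+06 UMIs, CPM), with exact Poisson 95% intervals, and a gene was called higher or lower when the summed levels differed at least 2-fold with at least 10 UMIs in the larger sum.

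Both TIL libraries stood against their labels. The library labelled heart TIL held 715 CPM of a hepatocyte gene list and 26.1 CPM of a cardiomyocyte list, against 75.3 and 176 CPM in the library labelled liver TIL, and the PC library held 395 and 28.7 CPM. Clec4f was at 22.3 CPM in all passing cells of both the PC and the labelled heart TIL library and at 0 UMIs in the labelled liver TIL library (limit 0.364 CPM). Names of both TIL libraries are therefore given as labelled throughout. The total depth was 19171264 UMIs in the PC library, 9306582 in the labelled heart TIL library and 8543672 in the labelled liver TIL library. Passing cell barcodes recurred between libraries, 151 between PC and labelled heart TIL and 600 between both TIL libraries, but none of the members shared a barcode with a member of the other library. Without every barcode that occurred in another library, 85 and 51 members were left. The 5 other libraries, with 18536 passing cells, held 0 members, 9 UMIs of the 6 markers and 0 UMIs of Clec4f.

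Kupffer cells line the liver sinusoids, where they clear microbes, ageing erythrocytes and debris from portal blood. They are seeded before birth and maintain themselves locally, while monocytes recruited from blood can take on the resident programme stepwise when the niche is emptied. In a liver graft the resident cells at the time of transplantation come from the donor, whereas recruited monocytes come from the recipient. BALB/c mice transcribe the MHC class II alpha chain gene H2-Ea and C57BL/6 mice do not, because their allele carries a deletion in its promoter. The reference genome is that of C57BL/6J, so the annotation lists the gene as the polymorphic pseudogene H2-Ea-ps (chr17:34341959-34344645 on the minus strand, GRCm38). The 6 marker genes encode a galactose-binding lectin (Clec4f, chr6:83644542-83656187), a complement receptor (Vsig4, chrX:96247203-96293438), a secreted survival factor of macrophages (Cd5l, chr3:87357881-87371073), a scavenger receptor (Marco, chr1:120474538-120505024), a receptor for phosphatidylserine (Timd4, chr11:46810800-46844332) and a folate receptor (Folr2, chr7:101839988-101857194).

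Among the transcripts that set some members apart were 5 processed pseudogenes, intronless copies of the mRNA of a parent gene elsewhere in the genome. Each differs from its parent transcript at few bases, so UMIs can be divided between the copies by single bases or by mapping, and the counts of all 10 genes are uncertain in that sense. The 29-base stretch around 1 difference of each pair is shown because the results below turn on how the UMIs fell between the copies. The capital marks the base at which pseudogene and parent differ, both strands are read 5′ to 3′ as transcribed, and the letters come from the GENCODE M21 transcripts of GRCm38.
Gm15459: gttacttttgacatTgatgccaatggcat
Hspa8: gttacttttgacatCgatgccaatggcat
Gm15772: ggcacaaccgtccaCgtgggcatccaccc
Rpl26: ggcacaaccgtccaTgtgggcatccaccc
Gm8730: acaccttcccacttGctgaaaaggtcaag
Rplp0: acaccttcccacttActgaaaaggtcaag
Gm10039: tctgtttgatggtcAccttcctcatcctc
Atp5g1: tctgtttgatggtcGccttcctcatcctc
Gm15920: attcatgaatgggtCccaccttcgacacc
Ndufa12: attcatgaatgggtTccaccttcgacacc

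Gm15459 (chr5:5781615-5783555, minus strand) differs at 5 of 1941 bases from Hspa8, a constitutive chaperone gene on chromosome 9. Gm15772 (chr5:3236431-3236868, plus strand) differs at 2 of 438 bases from the ribosomal protein gene Rpl26, and Gm8730 (chr8:102864845-102865798, minus strand) at 12 of 954 from Rplp0, which encodes another ribosomal protein. Gm10039 (chr11:100361716-100362126, minus strand) differs at 1 of 411 bases from Atp5g1, a subunit of ATP synthase. Gm15920 (chr5:130188395-130188796, plus strand) differs at 2 of 402 bases from Ndufa12, a subunit of respiratory complex I. The difference shown lies 501, 150, 170, 26 and 24 bases before the 3′ end of the respective pseudogene.

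The members were macrophages by their complement C1q genes, since 86 of 87 members in PC and 59 of 59 in labelled heart TIL held at least 4 UMIs of C1qa, C1qb and C1qc. The cells they were compared with were the other cells of the same library with at least 4 C1q UMIs and the same T cell limit, 1178 in PC, 1550 in labelled heart TIL and 2488 in labelled liver TIL. Kupffer-rule cells were 6.88% of C1q macrophages in PC (5.54 to 8.41), 3.67% in labelled heart TIL (2.80 to 4.70) and 0 in labelled liver TIL (limit 0.121%). The members were deeper than their comparison cells, with medians of 2290 against 1628.5 UMIs in PC and 1375 against 830.5 in labelled heart TIL. The share in labelled heart TIL moved with depth, to 6.28% against comparison cells in the depth range of the members and to 8.10% with a floor of 1000 UMIs per cell, while the share in PC stayed within its counting interval under both.

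The members were unequal in their markers. The summed marker UMIs per cell ran from 4 over a median of 11 to 223 in PC and from 4 over 7 to 49 in labelled heart TIL. At least 3 of the 6 markers were seen in 42 members of PC (48.3%) and in 34 of labelled heart TIL (57.6%), and all 6 in 7 and 0 cells. Cd5l without Clec4f admitted 52 and 30 cells, Clec4f without Cd5l 1 and 3, and both genes together were seen in 34 and 26. Cd5l and Marco supplied 78.2% and 70.5% of the marker UMIs. Clec4f was seen in 40.2% of members in PC (18.4% after thinning every cell to 500 UMIs), in 1.66% of cells with T cell genes (median 1585 UMIs) and in 1.10% of the other C1q macrophages of that library. For labelled heart TIL the corresponding shares were 49.2% (35.6% thinned), 1.55% (median 880 UMIs) and 1.23%.

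Members that held at least 1 UMI of Clec4f, Vsig4 or Timd4, 3 markers known in the liver from resident Kupffer cells, were set against members that met the rule through Cd5l, Marco and Folr2 alone. This division was chosen after the values had been seen. It gave 43 members with and 44 without these genes in PC, and 36 with and 23 without in labelled heart TIL. Median UMIs per cell were 2198 with and 2321 without in PC, where the deepest cells held 7721 and 6937, and 1256.5 with and 1559 without in labelled heart TIL, where the deepest held 2877 and 4775. The neutrophil gene list stood at 3586 CPM with and 1812 CPM without in PC, with 5 UMIs or more of it in 25 of 43 and 16 of 44 cells, and at 2229 and 3153 CPM in labelled heart TIL. Without cells that held 5 UMIs or more of another cell type, 40 members of PC were left, of which 32.5% held the 3 genes in place of 49.4%, and the pseudogene share of those with, described below for all members, was 50.7%. The T cell and dendritic cell lists were not used for this step. Members with the 3 genes held 394 UMIs of them in PC (3219 CPM) and 146 in labelled heart TIL (2905 CPM), while 2.80% and 2.71% of the other C1q macrophages held any. Cd5l and Marco chose the members, and the rule required Cd5l in every member without, so their levels are a description. Cd5l was at 4044 CPM (3695 to 4416) with and 2428 CPM (2152 to 2730) without in PC, against 57.0 CPM in the other C1q macrophages. Cd5l in labelled heart TIL was at 2507 CPM with, 2710 CPM without and 111 CPM in the others. Marco stood at 5514 CPM with and 989 CPM without in PC, and at 2487 and 419 CPM in labelled heart TIL.

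**Figure D1:**
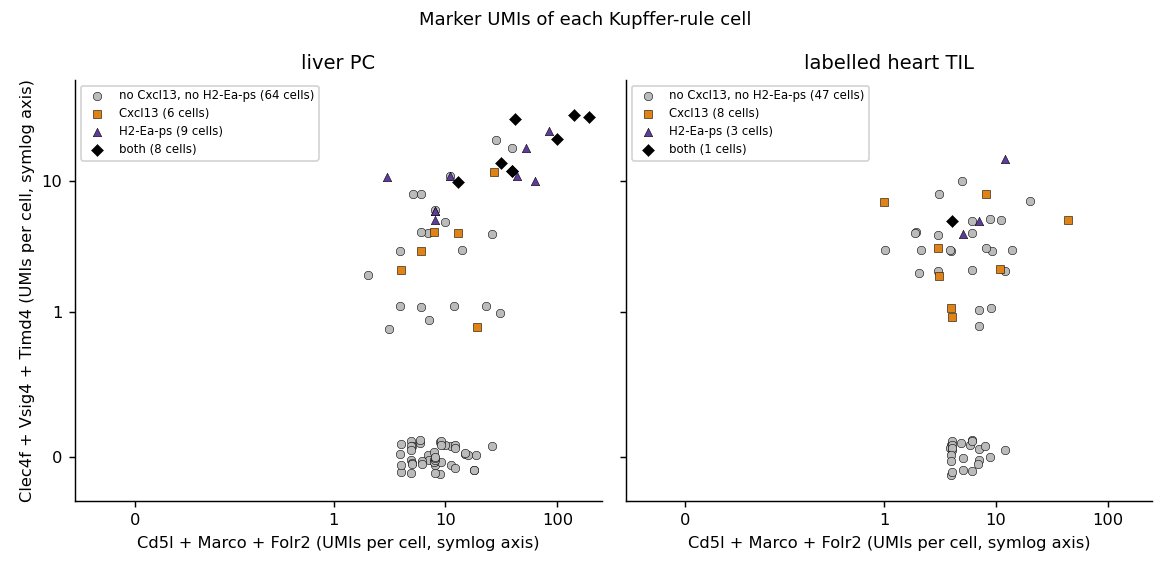
Each point is 1 Kupffer-rule cell of liver PC (left, 87 cells) or labelled heart TIL (right, 59 cells), with the UMIs of Cd5l, Marco and Folr2 on the horizontal and of Clec4f, Vsig4 and Timd4 on the vertical axis (symlog axes, points spread slightly), and symbols show which cells held UMIs of Cxcl13 or H2-Ea-ps. All cells with either gene lie above 0 on the vertical axis, and the row at 0 holds 44 and 23 cells without either.

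The strain gene H2-Ea-ps was seen in members with Clec4f, Vsig4 or Timd4 and in 0 members without. In PC 17 of 43 members with these genes held 31 H2-Ea-ps UMIs, and in labelled heart TIL 4 of 36 held 5. Because the gene belongs to MHC class II, its UMIs were set against those of H2-Aa, H2-Ab1 and H2-Eb1, which encode the chains that antigen-presenting cells of both strains make. In PC members with the 3 genes held 17.7 H2-Ea-ps UMIs per 1000 class II UMIs (11.98 to 25.2, of 1753), members without held 0 of 1391 (limit 2.16 per 1000), and the other C1q macrophages held 4 of 38591 (0.104 per 1000, 0.0282 to 0.265). In labelled heart TIL the values were 6.21 per 1000 with (2.01 to 14.6, of 805), 0 of 447 without, which allows up to 6.71 per 1000, and 1 of 23679 in the others (0.0422 per 1000). The limit of the members without lay below the interval of those with in PC, a description of a division picked with these values in view, and in labelled heart TIL that limit reached above the value of those with, so a difference was not detectable at that depth. Cells with T cell genes held 0.576 per 1000 in PC and 0.516 in labelled heart TIL.

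Cxcl13, the chemokine that draws B cells and follicular T cells (chr5:95956951-95961068, plus strand), divided in the same way. In PC 14 members with Clec4f, Vsig4 or Timd4 held 120 Cxcl13 UMIs, up to 33 in 1 cell, and the 44 members without held 0. Of the labelled heart TIL members, 9 with held 50 UMIs, up to 15 in 1 cell, and the 23 without held 0. The summed level with the 3 genes was 980 CPM (813 to 1172) in PC, and in labelled heart TIL it was 995 CPM (738 to 1312), against limits of 26.0 and 73.9 CPM without and 5.19 and 9.36 CPM in the other C1q macrophages. Few cells carried the signal in either library, and 8 cells of PC and 1 of labelled heart TIL held both Cxcl13 and H2-Ea-ps.

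The 5 pseudogenes shown above separated both kinds of members as well. These pairs were picked after their values had been seen among the genes furthest from the comparison cells. Of all UMIs on the 5 pairs, 39.5% fell on the pseudogene in PC members with Clec4f, Vsig4 or Timd4 (293 of 741, 36.0 to 43.2), 2.61% in members without (25 of 957, 1.70 to 3.83) and 2.78% in the other C1q macrophages (2.53 to 3.04). In labelled heart TIL the shares were 39.8% with (125 of 314, 34.4 to 45.5), 4.44% without (14 of 315, 2.45 to 7.34) and 3.38% in the others. The intervals of members with and without did not overlap in either library, those of members without overlapped those of the other macrophages, and both the pairs and the division were picked with these values in view. In whole libraries the share ran from 1.76% in kidney PBMC to 3.55% in labelled heart TIL.

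All 5 pairs went the same way, but they were picked with these values in view, so their agreement is a description. Shares of other pseudogene pairs were not computed. Gm15459 took 75 of the 178 UMIs of its pair with Hspa8 in PC members with the 3 genes (42.1%), 0 of 211 in members without and 0.520% in the others. It took 53.7% in labelled heart TIL members with and 0 of 49 without. Gm15772 took 64.3% of the UMIs shared with Rpl26 in PC members with and 2.96% without, and 58.7% and 9.46% in labelled heart TIL. Gm10039 took 55.2% and 7.95% of its pair with Atp5g1 in PC and 67.9% and 5.26% in labelled heart TIL. Gm15920 and Gm8730 lay lower, at 30.3% and 19.9% with in PC against 6.12% and 1.97% without. For Gm15920 in labelled heart TIL the shares of 25.5% (13.9 to 40.3) and 3.70% (0.0937 to 19.0) had overlapping intervals. Of the parents in PC, Rpl26 had 55 UMIs with and 295 without and Hspa8 103 and 211, on sums of 122412 and 115320 UMIs, whereas Ndufa12 was level at 46 and 46. Ndufa12 in labelled heart TIL had 35 UMIs with and 26 without, on sums of 50254 and 40597. A pseudogene UMI was seen in 40 of 43 members with and in 21 of 44 without in PC, with per-cell medians of 42.9% and 0, and in 32 of 36 and 9 of 23 in labelled heart TIL. H2-Ea-ps in members with stood at 17.7 per 1000 class II UMIs in PC (11.98 to 25.2) and at 6.21 in labelled heart TIL (2.01 to 14.6). The pseudogene shares were 39.5% and 39.8%, and the H2-Ea-ps intervals of both libraries overlapped. The part of strain in the share was not tested, since no sequence variants were read from the cells.

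Members with a single UMI of the 3 genes were looked at apart. In PC the 8 members with exactly 1 such UMI held 0 H2-Ea-ps UMIs among 153 class II UMIs (limit 19.6 per 1000) and a pseudogene share of 7.41% (3.61 to 13.2). The 35 members with 2 or more held all 31 H2-Ea-ps UMIs, 19.4 per 1000 (13.1 to 27.6), and a pseudogene share of 46.7% (42.7 to 50.8). For H2-Ea-ps a difference between them was not detectable at that depth. In labelled heart TIL the 5 members with exactly 1 had a share of 30.4% (13.2 to 52.9), whose interval reached that of the 31 members with 2 or more (40.5%, 34.9 to 46.4). Cxcl13 in PC had 4 UMIs with exactly 1 (216 CPM) and 116 with 2 or more (1116 CPM). In labelled heart TIL the order was the other way, with 17 UMIs (3753 CPM), of which 15 were in 1 cell, and 33 UMIs (722 CPM).

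The same division was read in cells that the rule had left out only for their T cell UMIs, 65 in PC and 33 in labelled heart TIL. In PC 28 of these held Clec4f, Vsig4 or Timd4, with 27 H2-Ea-ps UMIs in 12 cells (23.0 per 1000 class II UMIs, 15.1 to 33.6) and a pseudogene share of 20.3% (17.4 to 23.5), so H2-Ea-ps was no lower than in members with while the share was. The 37 without held 1 H2-Ea-ps UMI (0.565 per 1000) and a share of 2.37%. Of the labelled heart TIL cells, the 18 with held 4 H2-Ea-ps UMIs (10.1 per 1000, 2.73 to 26.0) and a share of 27.9% (21.8 to 34.6), and the 15 without held 0 and a share of 2.84%. Cxcl13 followed, with 20 UMIs against 0 in PC and 12 against 0 in labelled heart TIL. The lower pseudogene share than in the members stood beside more T cell UMIs, and the part of second cells in these barcodes was not tested.

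**Figure D2:**
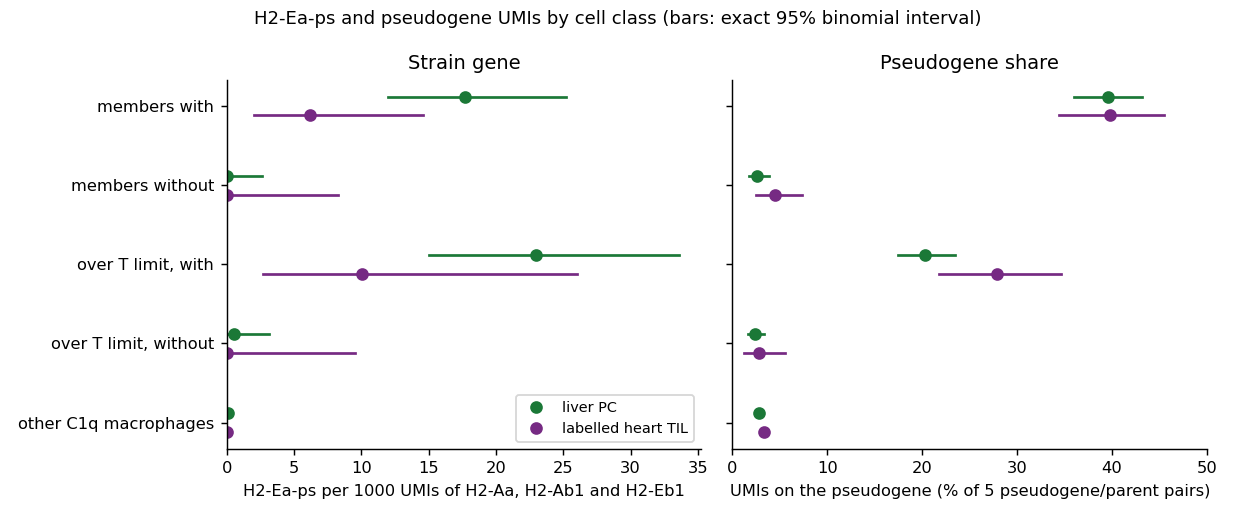
H2-Ea-ps UMIs per 1000 UMIs of H2-Aa, H2-Ab1 and H2-Eb1 (left) and the percentage of UMIs of the 5 pairs that fell on the pseudogene (right), for members with and without Clec4f, Vsig4 or Timd4, cells over the T cell gene limit with and without, and other C1q macrophages (points: summed value, bars: exact binomial 95% interval). Members with reach 39.5% and 39.8% on the right, while members without and other macrophages lie between 2.61% and 4.44%.

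At the threshold of the rule, 6 members of PC and 12 of labelled heart TIL had a marker sum of exactly 4, and 16 cells in each library lay just outside with a sum of 3. Neither the members with a sum of 4 or 5 (15 and 20 cells) nor the cells at 3 held an H2-Ea-ps UMI. Their limits were 8.0 and 6.56 per 1000 class II UMIs in PC, and 8.15 and 14.7 in labelled heart TIL, where they lay above the value of members with. A further 26 cells of PC and 8 of labelled heart TIL met the marker sum without Clec4f or Cd5l, mostly through Marco, with 300 Marco UMIs in PC and 52 in labelled heart TIL. They held 0 H2-Ea-ps UMIs of 863 class II UMIs in PC and 1 of 201 in labelled heart TIL (4.98 per 1000, 0.125 to 28.0), an interval that spans the value of the members with.

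Against the other C1q macrophages the members carried more of the resident programme and less of the monocyte programme in both libraries. The lists behind this were written with earlier results of these data known, so their counts are a description. Of a list of further Kupffer cell genes, 13 of 18 measured genes were higher and 0 lower in PC (median log2 ratio 3.07), and 13 of 17 were higher and 0 lower in labelled heart TIL (2.31). Of a list of genes of recruited monocytes, 12 of 17 were lower and 0 higher in PC (median -1.51), and 10 of 15 were lower and 0 higher in labelled heart TIL (-1.23). With at least 10 UMIs expected in the smaller sum, 13 of 18 and 11 of 13 Kupffer cell genes were higher, and 12 of 14 and 7 of 11 monocyte genes lower. Over all genes tested, 793 of 9367 were higher in members of PC (8.47%) and 1367 lower (14.6%), with a median of 0.01. In labelled heart TIL 693 of 7724 were higher (8.97%) and 1943 lower (25.2%), with a median of -0.07. Many of the lower genes were at 0 UMIs in the members, 646 of 1367 and 1404 of 1943, and for 641 and 1403 of these a count of 3 in the members would not have reached 2-fold. Genes with few UMIs in the smaller sum can pass the fold in either direction by counting error alone, so neither the higher nor the lower of these counts is read as a number of changed genes. Where at least 10 UMIs were expected in the smaller sum, 287 of 3741 genes were higher (7.67%) and 201 lower (5.37%) in PC, and 115 of 1692 higher (6.8%) and 95 lower (5.61%) in labelled heart TIL.

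The directions recurred between the libraries. Of 1688 genes with at least 10 UMIs expected in both, 57 were higher in both (3.38%), 48 lower in both (2.84%) and 1 opposite (0.0592%), and with 10 UMIs in the larger sum 162 of 7591 were higher in both (2.13%), 429 lower in both (5.65%) and 150 opposite (1.98%). The 6 markers, which chose the members, are among the genes higher in both under either filter. Over the 1682 genes left without the 6 markers, the log2 ratios of both libraries had a Spearman rho of 0.596 and a Pearson r of 0.757. The T cell genes of the rule were not left out of this set. These coefficients are a description across genes, which are not independent. Both libraries were ranked by the same markers and the same annotation. The label of the labelled heart TIL library is in doubt, as described above. Whether both libraries came from separate grafts or animals is not given in the sources used here.

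The genes furthest above the comparison cells included secreted factors and surface receptors of resident cells. Cxcl13 stood at 505 CPM (419 to 604) in members of PC against 5.19 CPM, and at 550 CPM (408 to 726) against 9.36 in labelled heart TIL. Ccl24, a chemokine for eosinophils, stood at 383 CPM (308 to 470) against 13.8 and at 682 CPM (523 to 875) against 18.0. Clec1b, a lectin receptor known from platelets and Kupffer cells, was at 496 CPM against 24.2 and at 605 against 39.4. Fcna, a ficolin that recognises microbial sugars, had log2 ratios of 3.91 and 3.61, and Cd163, the scavenger receptor for haemoglobin, 3.88 and 3.85. Slc40a1, the iron exporter ferroportin, was at 660 CPM against 67.0 in PC and at 528 against 80.9 in labelled heart TIL. Fabp7, a fatty acid binding protein, had ratios of 3.44 and 3.29, Igf1, a growth factor, 3.69 and 2.89, and Hpgd, which degrades prostaglandins, 4.39 and 2.91. C6, a terminal complement component, had 19 UMIs in members and 3 in the much larger comparison class in PC (log2 ratio 5.14), and 4 against 2 in labelled heart TIL, too few for a call. Ctla2b and Ear2 were also higher, and their counts are uncertain because near-identical copies exist.

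Among the genes below the comparison cells were several known from recruited and inflammatory cells. Lyz2, a lysozyme, stood at 3655 CPM in members of PC against 11638 CPM in the other macrophages, and at 6340 against 14846 in labelled heart TIL. Chil3, a chitinase-like protein of inflammatory monocytes, stood at 480 against 3408 CPM and at 914 against 3084. Ly6c2, a surface protein of inflammatory monocytes, was at 290 against 1430 CPM and at 286 against 802. The inhibitory IgG receptor gene Fcgr2b had 11 UMIs in PC members (46.3 CPM, 23.1 to 82.8) against 521 CPM, and 9 in labelled heart TIL (99.1 CPM, 45.3 to 188) against 440. Spp1, which encodes osteopontin, had log2 ratios of -2.51 and -2.39, Clec4d, a pattern-recognition lectin, -3.11 and -1.99, and Il1rn, the interleukin-1 receptor antagonist, -2.31 and -2.11. F13a1, a factor XIII subunit of monocytes, had 1 UMI in PC members against 143 in the other macrophages, on sums of 237732 and 2314234 UMIs. The 10 genes with the smallest ratios in PC had 0 UMIs in its members, and against the limit of 3 UMIs only Adam15 (at least 3.39-fold lower), Chordc1 (2.23) and D16Ertd472e (2.09) were past 2-fold. Lists of several other cell types were lower in the members as well. The neutrophil list was at 6890 CPM in the other C1q macrophages of PC and at 3586 and 1812 CPM in members with and without. In labelled heart TIL it was at 5237, 2229 and 3153 CPM. The T cell list was at 1152 CPM in the others and at 637 and 486 in members of PC with and without. In labelled heart TIL it was at 2002, 915 and 887. The B and plasma cell list was at 2998 CPM in the others and at 882 with and 546 without in PC, and at 2710, 1333 and 1946 in labelled heart TIL. The NK cell list was at 2078, 1078 and 763 in PC and at 3991, 1791 and 1626 in labelled heart TIL. The dendritic cell list went the other way, at 256, 294 and 434 CPM in PC and at 264, 378 and 591 in labelled heart TIL. The hepatocyte list was mixed, at 385, 539 and 399 in PC and at 642, 876 and 493 in labelled heart TIL. So was the endothelial list, at 144, 261 and 139, and at 164, 99.5 and 172. The part of other cell types in the lower genes was not tested.

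Among the cytokines and chemokines of T cell communication, Il1a was at 219 CPM in members against 41.9 in PC (log2 ratio 2.36) and at 176 against 54.1 in labelled heart TIL (1.68). Il18, an inducer of interferon gamma, had ratios of 1.96 and 1.99, and Il18bp, which neutralises it, 1.15 and 1.17. The monocyte chemoattractant Ccl7 was higher in both (1.53 and 1.38), whereas Ccl5 was lower (-1.74 and -1.30) and Cxcl2, which attracts neutrophils, was lower (-1.27 and -1.77). Cxcl9, induced by interferon gamma, did not pass the fold (-0.78 and -0.60). Il10 had 5 UMIs in members of PC against 24 in the comparison class, on sums of 237732 and 2314234 UMIs. In labelled heart TIL it had 2 against 25, on sums of 90851 and 1496013. Tgfb1 had 8 and 3 UMIs in members, and for both genes these were too few for a statement. The pan-macrophage gene Cd68 was at 766 against 657 CPM and at 770 against 645. By count, 4 of 19 chemokines were higher and 4 lower in PC, and 5 of 18 higher and 3 lower in labelled heart TIL. Cxcl13 and Ccl24 of this list and Il18bp of the cytokine list also stand in the list of further Kupffer cell genes. For the cytokines 5 of 12 were higher and 1 lower, and 4 of 11 higher and 1 lower. With 10 UMIs expected in the smaller sum, the chemokines were 3 higher and 3 lower of 15, and 4 higher and 3 lower of 15, and the cytokines 4 higher and 1 lower of 7, and 4 higher and 0 lower of 5. Of all genes 8.47% were higher and 14.6% lower in PC, and 8.97% and 25.2% in labelled heart TIL. With 10 UMIs expected these were 7.67% and 5.37% in PC, and 6.8% and 5.61% in labelled heart TIL.

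Among the regulators, Nr1h3, which encodes the nuclear receptor LXR alpha of the Kupffer cell programme, was at 475 against 239 CPM in PC and 374 against 203 in labelled heart TIL, just under the fold in both. Id3, another factor of the programme, had ratios of 0.81 and 1.04, and Spic, the factor of iron-recycling macrophages, 0.61 and 1.09. Spi1, the pan-myeloid factor PU.1, had -0.02 and 0.39. Of the list of transcription factors 1 of 19 was higher and 2 lower in PC, beside 8.47% and 14.6% of all genes, and 3 of 16 higher and 4 lower in labelled heart TIL, beside 8.97% and 25.2%. With 10 UMIs expected in the smaller sum, 1 of 14 and 2 of 6 were higher, beside 7.67% and 6.8% of all such genes. Under that filter 0 of 14 and 0 of 6 were lower, beside 5.37% and 5.61%.

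For metabolic and clearance genes the counts are to be read beside the 8.47% higher and 14.6% lower of all genes in PC, and the 8.97% and 25.2% in labelled heart TIL. Counts with 10 UMIs expected are to be read beside 7.67% higher and 5.37% lower in PC, and 6.8% and 5.61% in labelled heart TIL. Of the iron and haem genes 6 of 16 were higher and 0 lower in PC and 5 of 14 higher and 1 lower in labelled heart TIL, and 4 of 12 and 4 of 11 were higher and 0 lower with 10 UMIs expected in the smaller sum. The lists share genes, so their counts are not independent. Slc40a1, Cd163 and Spic of the iron list, C6 and Fcna of the complement list and Cd163 of the scavenger list also stand in the Kupffer cell list. Hmox1, the haem-degrading enzyme, did not pass the fold (0.61 and 0.84), and the ferritin gene Fth1 stood at 10226 against 16625 CPM and at 14144 against 20061. Of the lipid genes 4 of 20 were higher and 2 lower in PC, and 5 of 19 higher and 3 lower in labelled heart TIL. With 10 UMIs expected, the lipid counts were 4 higher and 1 lower of 15, and 3 higher and 0 lower of 7. Apoc1, an apolipoprotein, stood at 379 against 60.1 CPM and at 815 against 156, and Pltp, a phospholipid transfer protein, had ratios of 2.56 and 2.06, while Apoe, the main macrophage apolipoprotein, had -0.23 and -0.31. Of the complement genes 6 of 16 were higher and 3 lower in PC, and 1 of 14 higher and 3 lower in labelled heart TIL. With 10 UMIs expected, they were 6 higher and 3 lower of 15, and 1 higher and 1 lower of 8. The anaphylatoxin receptor gene C5ar1 was lower in both (-1.54 and -2.40), and properdin (Cfp) had 1.12 and 0.68. Of the efferocytosis and scavenger genes 4 of 16 were higher and 3 lower, and 4 of 14 higher and 5 lower. Of these measured genes 2 and 4 were at 0 UMIs in the members. With 10 UMIs expected, 4 of 10 and 3 of 5 were higher, and 0 of 10 and 0 of 5 were lower. In this list, the mannose receptor gene Mrc1 had 2.29 and 3.42 and the lipoprotein receptor gene Scarb1 1.06 and 1.29. Of 19 lysosome genes 1 was higher and 0 lower in each library, Lgmn (1.03 and 1.04) in both.

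Most antigen presentation genes did not pass the fold. Of the MHC class II list 0 of 10 were higher and 2 lower in PC, and 0 of 8 higher and 1 lower in labelled heart TIL, all of them at 0 UMIs in the members. Cd74, the invariant chain, stood at 9397 against 11580 CPM and at 13131 against 14210. For MHC class I 0 of 12 passed in either library. Of 21 interferon response genes 0 were higher and 5 lower in PC, and 0 higher and 3 lower in labelled heart TIL. With 10 UMIs expected in the smaller sum, 5 of 20 were lower in PC, beside 5.37% of all such genes, and 0 of 13 in labelled heart TIL, beside 5.61%. Of the checkpoint genes 1 of 12 was higher and 4 lower in each (with 10 UMIs expected, 0 of 7 higher and 2 lower in PC, and 1 of 4 higher and 0 lower in labelled heart TIL), and Cd274, which encodes PD-L1, had 24 UMIs (0.45) and 5 UMIs (0.08). Of the Fc receptors and lectins 0 of 12 were higher in either and 3 and 4 lower, and all these lower calls held with 10 UMIs expected. Of 4 colony-stimulating factor receptor genes 0 passed in PC and 2 were lower in labelled heart TIL, of which 1 held with 10 UMIs expected. For the 53 oxidative phosphorylation genes the median ratios were 0.18 and 0.24, with 0 higher in either and 1 and 0 lower. For the cell cycle 2 of 18 were higher and 2 lower, and 1 of 17 higher and 2 lower, and with 10 UMIs expected these became 2 higher and 0 lower of 15, and 0 of 7 in either direction. Of the insulin signalling genes 1 of 19 was higher and 1 lower, and 2 of 14 higher and 3 lower, but none of these calls held with 10 UMIs expected, where 7 genes and 1 gene could be read. Of the stress genes 0 of 10 were higher and 3 lower in each, and with 10 UMIs expected 3 of 7 and 1 of 5 were lower. Counts under the main filter are to be read beside 8.47% higher and 14.6% lower of all genes in PC, or 8.97% and 25.2% in labelled heart TIL. Those with 10 UMIs expected are to be read beside 7.67% and 5.37%, or 6.8% and 5.61%.

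**Figure D3:**
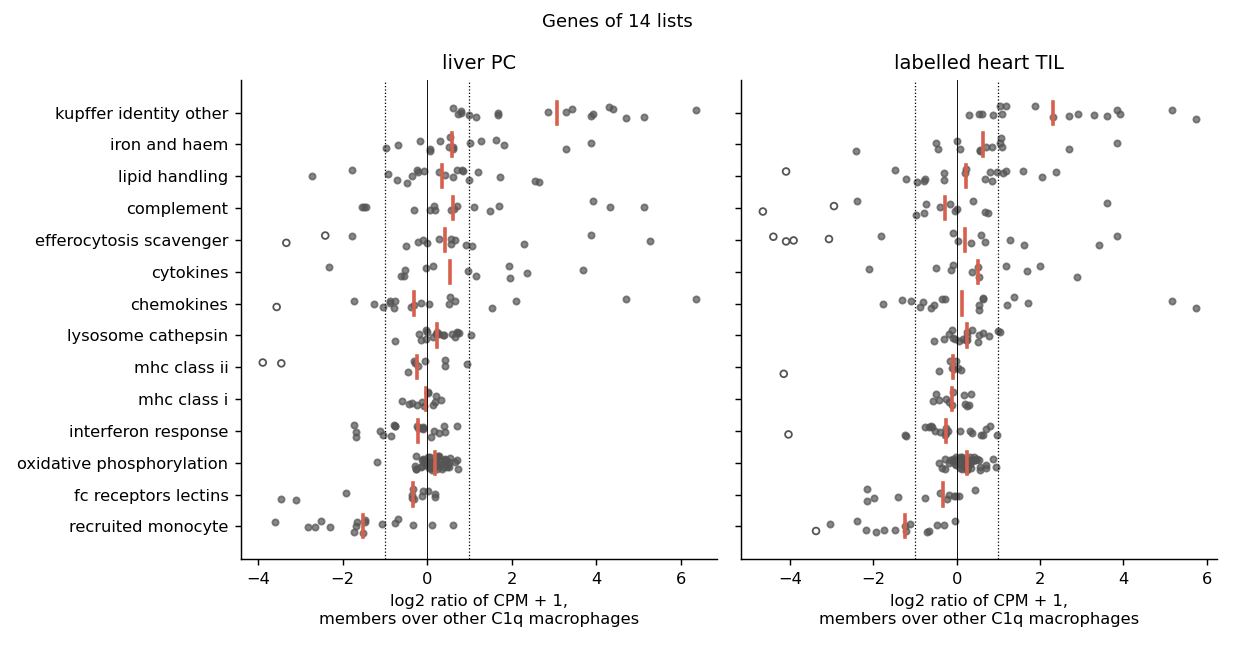
Log2 ratio of summed CPM plus 1, members over other C1q macrophages, for each measured gene of 14 lists in liver PC (left) and labelled heart TIL (right), with the median of each list as a vertical mark, the 2-fold bounds dotted and genes at 0 UMIs in the members as open circles. The Kupffer cell list lies to the right (medians 3.07 and 2.31) and the recruited monocyte list to the left (-1.51 and -1.23), while oxidative phosphorylation genes centre near 0.

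Monocyte genes were lower in members both with and without Clec4f, Vsig4 or Timd4. Of the recruited monocyte list 11 of 12 measured genes were lower than in the other C1q macrophages in PC members with these genes and 10 of 12 in those without, and 7 of 10 and 5 of 9 in labelled heart TIL. On both sides of the division, 10 of these genes were lower in PC and 5 in labelled heart TIL. Lyz2 stood at 3570 CPM with and 3746 CPM without in PC, and at 6089 and 6651 in labelled heart TIL. Of the further Kupffer cell genes 13 of 17 were higher with and 7 of 11 without in PC, and 8 of 11 and 2 of 5 in labelled heart TIL. For comparison, with at least 10 UMIs expected in the smaller sum, 271 of 2285 genes were higher (11.9%) and 155 lower (6.78%) in PC members with, and 142 of 2092 higher (6.79%) and 110 lower (5.26%) in members without. For labelled heart TIL these were 100 of 1025 higher (9.76%) and 85 lower (8.29%) with, and 51 of 831 higher (6.14%) and 34 lower (4.09%) without.

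Some resident genes were above the other macrophages in members of both kinds. Clec1b was at 654 CPM with, 330 without and 24.2 in the others in PC, and at 696, 493 and 39.4 in labelled heart TIL. Fabp7 was at 466, 191 and 29.8, and at 438, 123 and 29.4. Slc40a1 was at 907, 399 and 67.0 in PC and at 816, 172 and 80.9 in labelled heart TIL, where the interval without (69.3 to 355) included the level of the others. Nr1h3 was near level between both kinds of members, at 482 and 468 CPM in PC and 398 and 345 in labelled heart TIL. Id3 was at 261 with and 425 without in PC and at 358 and 468 in labelled heart TIL. Others were high almost entirely in the members with. Fcna was at 449 CPM with, 34.7 without and 15.6 in the others in PC, and at 458, 24.6 and 20.7 in labelled heart TIL. Apoc1 was at 645, 95.4 and 60.1 in PC and at 1393, 98.5 and 156 in labelled heart TIL.

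For Ccl24, Cd163 and Spic the values of both libraries stand side by side. Ccl24 was at 490 CPM (374 to 631) with and 269 (183 to 382) without in PC, but at 1174 (894 to 1514) and 73.9 (15.2 to 216) in labelled heart TIL. Cd163 was at 261 and 26.0 CPM in PC and at 99.5 and 123 in labelled heart TIL, the latter from 5 UMIs on each side. Spic was at 180 and 199 in PC and at 557 and 73.9 in labelled heart TIL. Whether these divisions differed between libraries was not tested.

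Compared directly, 253 of 2394 genes were higher (10.6%) and 179 lower (7.48%) in PC members with than in those without, and 115 of 1027 higher (11.2%) and 87 lower (8.47%) in labelled heart TIL. These calls needed 2-fold and 10 UMIs in the larger sum, with no interval asked for. In both libraries 27 of 1021 genes were higher (2.64%) and 14 lower (1.37%) in the members with. The 27 include 5 of the 6 markers, which chose the members, 3 of them by construction of the division. All 5 pseudogenes, picked with these values in view, are among the 27 too. Others are Cxcl13, Fcna, Apoc1, Fabp7, Slc40a1, Igf1, Pltp, Il18 and Il1a. The interleukin genes stood at 384 CPM with and 139 without (Il18) and 294 and 139 (Il1a) in PC, and at 537 and 148, and 239 and 98.5, in labelled heart TIL. Pltp was at 686 and 260 in PC and at 338 and 98.5 in labelled heart TIL, and Igf1 at 229 and 69.4, and 259 and 49.3. Several of these rest on few UMIs in labelled heart TIL, with 12 and 4 of Il1a, 13 and 2 of Igf1, 17 and 4 of Pltp, and 22 and 5 of Fabp7. The intervals with and without overlapped there for these 4 genes and for Gm15920, and in PC for Il1a (206 to 407 and 79.3 to 225 CPM), so a difference beyond counting error was not shown for them. The 14 lower genes include the parents Hspa8, Rpl26 and Atp5g1, the ribosomal protein genes Rpl29 and Rpl35a, Stmn1, which binds tubulin, and Rnaset2b. The cell cycle list, which holds Stmn1, was at 1691 CPM with, 2471 without and 1530 in the others in PC. In labelled heart TIL it was at 1552, 2537 and 1912. Of its measured genes 4 of 12 and 1 of 4 were lower with, and 0 higher, beside 7.48% and 8.47% lower of all genes. Against the other macrophages, 3 of 15 measured chemokine genes were higher and 2 lower in PC members with, and 1 of 13 higher and 7 lower in those without, beside 6.78% and 5.26% of all genes lower. For labelled heart TIL these were 4 of 15 higher and 4 lower with, and 1 of 11 higher and 5 lower without, beside 8.29% and 4.09% lower. MHC class II genes passed the fold in 0 cases on either side of the division, with H2-Aa at 4330 CPM with and 3547 without in PC and at 4338 and 2586 in labelled heart TIL.

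**Figure D4:**
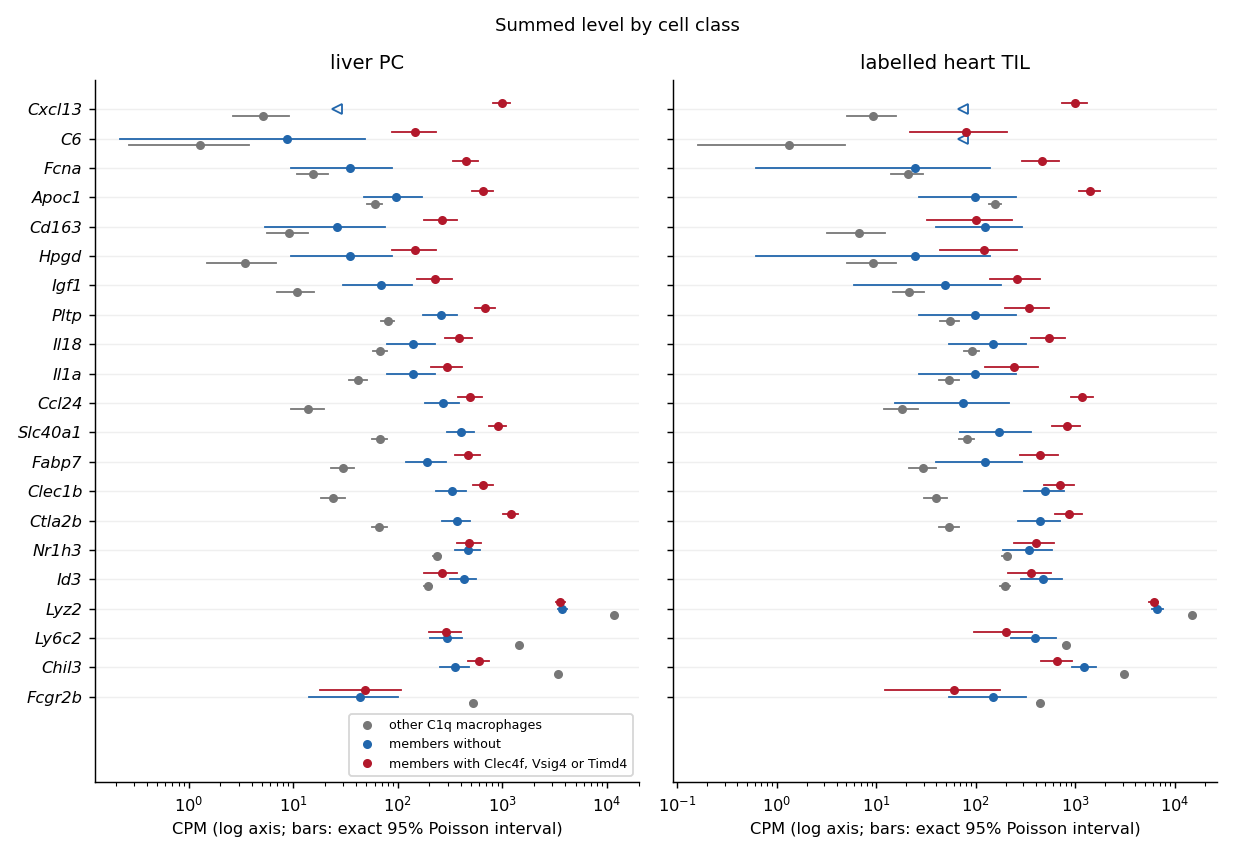
Summed level (CPM, log axis) of 21 genes in members with (red) and without (blue) Clec4f, Vsig4 or Timd4 and in the other C1q macrophages (grey) of liver PC (left) and labelled heart TIL (right), with exact Poisson 95% intervals and open triangles at the limit of a count of 0. Cxcl13 has no UMI in members without in either library, and Lyz2, Ly6c2 and Chil3 lie below the other macrophages in both kinds of members.

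In the labelled liver TIL library Clec4f was at 0 and Folr2 was not. Its passing cells held 0 UMIs of Clec4f, 1 of Cd5l, 14 of Vsig4, 3 of Timd4, 35 of Marco and 64 of Folr2. Folr2, also known from other tissue macrophages, was at 7.77 CPM there, against 6.56 CPM in labelled heart TIL and 11.1 CPM in PC. The 2 cells there that reached the marker sum had neither Clec4f nor Cd5l. H2-Ea-ps had 1 UMI in the whole library, against 108 in PC and 31 in labelled heart TIL. Its 2488 C1q macrophages held 12 Cxcl13 UMIs in 6 cells (5.31 CPM), near the 5.19 and 9.36 CPM of the non-member macrophages of the other libraries.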

How the data were processed

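Microwell-seq UMI counts were analysed as deposited by the authors, 1 table of raw counts per gene and cell barcode for each of 8 libraries. Per the methods the authors dropped read pairs with low-quality barcodes, aligned reads with STAR to GRCm38.88, dropped reads with multiple alignments, tagged genes by GENCODE and merged UMIs that differed by 1 base. No strain-specific genome is named, and the release of the GENCODE file is not given in the sources used here. Here barcodes under 500 UMIs or over 10% mitochondrial UMIs were dropped, doublets were limited only by the T cell gene limit, and UMIs were summed per class and library. Ratios used CPM with a pseudocount of 1 CPM, and calls needed 2-fold and 10 UMIs in the larger sum. Intervals are exact at 95%, and the limit of a 0 count is 3 counts. Members, lists and comparisons were chosen with earlier results of these data known. Named genes were the markers, the 15 largest and 10 smallest ratios in PC past the fold in both libraries, genes the study links to Kupffer cells, up to 5 per list by UMIs and H2-Ea-ps, and any other gene was chosen after its values were seen. Gene positions and the 5 pairs were taken from GENCODE M21 (218 of 218 named genes matched) with BLAST 2.17.0, and sums were computed with Python 3.11.15, numpy 2.4.6, scipy 1.17.1 and pandas 2.3.3. On simulated data the rule also called many unchanged genes, mostly as lower, and few of them where 10 UMIs were expected in the smaller sum, so the text also gives counts under that filter. The methods name 2 recipients per organ for the single-cell samples, and whether a library pools them is not given in the sources used here.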

Additional observations from a re-analysis of the deposited data

Results flagged for a closer look

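H2-Ea-ps was also seen outside the libraries with members. It reached 36.3 CPM in the kidney PC library (124 UMIs, 30.2 to 43.2) and 21.6 CPM in the kidney TIL library (85 UMIs, 17.3 to 26.7), neither of which held a Kupffer-rule cell, and 0 UMIs in the 3 PBMC libraries, with limits of 0.399, 0.446 and 0.869 CPM. These values cover all barcodes of each library, of which 795 of 10000 in kidney PC and 2004 of 10000 in kidney TIL passed the filters. Thumpd3 was the 1 gene that passed the fold in opposite directions in both libraries with at least 10 UMIs expected in each smaller sum, with a log2 ratio of members over other C1q macrophages of -1.03 in liver PC and 1.43 in labelled heart TIL. That difference was not tested, since each library stands alone.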

How the results depend on the processing

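No paired analysis was possible because the labels carry no replicate numbers and each condition is 1 library. With 1 library a group, no alternative could leave out a replicate. Of 6525 values of named genes under 15 alternatives, 6014 stayed within their counting interval, 504 moved out of it and 7 of genes past 2-fold changed sign. Changes of sign were not counted for genes that had not passed 2-fold. The labelled liver TIL library had 0 members and H2-Ea-ps had 0 UMIs in members without Clec4f, Vsig4 or Timd4 throughout, and the pseudogene share without stayed between 2.37% and 3.08% in PC and 3.30% and 6.42% in labelled heart TIL. In the order PC, labelled heart TIL, both libraries, genes higher/lower numbered 280/389, 372/1157 and 76/151 with a pseudocount of 10, 327/603, 262/737 and 76/158 with 30 UMIs, 1879/2914, 1766/5183 and 415/1545 without a filter, and 287/201, 115/95 and 57/48 with 10 UMIs expected. At 1.5-fold they were 1988/2144 in PC, 1589 higher in labelled heart TIL and 537/789 in both. Median-of-ratios scaling shifted all log2 ratios by -0.19, gave 490 higher in PC and 103 in both, and lowered the higher part of the calls from 36.7% to 23.2% in PC and from 26.3% to 18.9% in labelled heart TIL. A marker sum of 6 left 39 members in labelled heart TIL (2.42% of C1q macrophages, 74.4% with). A floor of 1000 UMIs gave a share of 8.10% there, 446 higher and 1128 lower, and 100/230 in both. With 0 T cell gene UMIs, PC had 49 members and a pseudogene share with of 45.2%, labelled heart TIL a member share of 5.16%, and 285 genes were lower in both. A C1q minimum of 2 gave member shares of 5.003% and 2.36% and 718 lower in both, and a minimum of 8 gave 9.86% and 7.48%, 1096 lower in labelled heart TIL and 98/202 in both. Comparison cells without markers gave 8.73% in PC, and cells of matched depth 6.28% in labelled heart TIL. Leaving out cells with 5 UMIs or more of another cell type (T cell and dendritic cell lists not used), chosen after the data were seen like the depth window, the expected-UMI filter and the barcode check, left 40 and 37 members, 32.5% with in PC and a pseudogene share with of 50.7%. Signs reversed in PC after thinning for Sparc (0.57) and Rel (0.72), and in labelled heart TIL for Adam15 (0.13), and in PC without cells of other types for Ighm (0.33), Retnlg (0.80), Sparc (0.014) and Mgp (1.04). The cause was not tested. The depth of the members, 237732 and 90851 UMIs in sum, limits genes under 12.6 and 33.0 CPM.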
